A study of Homo sapiens with 4 samples.

Results

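Levels of 9 genes that write, read or erase DNA methylation were compared between cadmium-resistant and control MDA-MB-231 cells by RNA sequencing. The genes were chosen by name as rows of the count table, with no measured value in the rule, and are the DNA methyltransferases DNMT1, DNMT3A and DNMT3B, the hemimethylated-DNA binding protein UHRF1, the dioxygenases TET1, TET2 and TET3, the glycosylase TDG and the methyl-CpG binding protein MBD2. They are 9 of 61541 genes counted, and all 9 passed the filter on low counts. MDA-MB-231 is an established human triple-negative breast cancer line. Control cells were grown without cadmium (2 libraries). Cadmium cells were passaged with cadmium sulfate until they grew at 10 µM and were resistant to the metal (2 libraries). The labels call the controls biological replicates and the cadmium libraries replicates, and nothing names separate resistant derivations, so p-values measure only the spread between these libraries. The control columns carried the numbers 2 and 3 and are called control 2 and control 3 here.

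Methylation of cytosine in CpG dinucleotides is written on both strands by DNA methyltransferases and is copied after each round of replication. UHRF1 binds the half-methylated CpG left by the replication fork and brings DNMT1 to it, whereas DNMT3A and DNMT3B methylate unmethylated sites. The TET enzymes oxidize methylated cytosine, TDG excises the more oxidized forms so that base excision repair can restore cytosine, and MBD2 brings the NuRD repressor complex to methylated CpG. In many tumours these activities are out of balance, with gains of methylation at promoters that lie in CpG islands and losses over the rest of the genome.

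Most promoters of these genes themselves held more CpG than the median promoter. In the 250 bases before the start of the MANE Select transcript (GENCODE 44, hg38), the 9 promoters held between 9 and 37 CpG dinucleotides, against a median of 18 over 19016 promoters of the same length. TET1 held the fewest, more than 27.2% of promoters, and TET3 the most, more than 94%. Of the 9, 8 were above the median, with DNMT1 and MBD2 only a little above it at 21. The core of the metal response element, the site bound by the metal-responsive factor MTF-1, was searched on both strands as TGCGCNC or TGCACNC, spellings that cannot match the same bases on a strand. One or the other was found in 31.1% of all promoters and in 3 of the 9, those of UHRF1, TET3 and MBD2. An AP-1 site, TGANTCA, was found in 4.74% of all promoters and in none of the 9. Of the E2F sites TTTCCCGC and TTTGGCGC, found in 2% and 0.705% of all promoters, the first was present in the promoter of UHRF1 and the second in none of the 9. These matches are letters in a window and do not show binding.

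The promoters with a metal response element core are printed, that of UHRF1 in part, to show where the matches lie. Each runs 5′ to 3′ on the strand of its gene in hg38, and capitals mark the matches. The MBD2 promoter (chr18:54224670-54224919, minus strand) has its match 14 to 8 bases before the start, and the TET3 promoter (chr2:73984660-73984909, plus strand) has one 61 to 55 bases before it. The first printed part of the UHRF1 promoter (chr19:4909251-4909429, plus strand) has TGCACNC 212 to 206 bases before the start. It has TGCGCNC on the opposite strand at 188 to 182 bases. A separate stretch of 30 bases next to the UHRF1 start (chr19:4909471-4909500) has the E2F site on the opposite strand, 14 to 7 bases before it. The window searched for UHRF1 was chr19:4909251-4909500. Its bases between the printed stretches, where an annotated exon begins, are left out.
MBD2: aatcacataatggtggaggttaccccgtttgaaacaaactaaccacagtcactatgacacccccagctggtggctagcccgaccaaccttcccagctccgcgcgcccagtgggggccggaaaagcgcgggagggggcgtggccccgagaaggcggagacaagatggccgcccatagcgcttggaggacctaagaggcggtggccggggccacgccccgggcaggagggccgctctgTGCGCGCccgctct
TET3: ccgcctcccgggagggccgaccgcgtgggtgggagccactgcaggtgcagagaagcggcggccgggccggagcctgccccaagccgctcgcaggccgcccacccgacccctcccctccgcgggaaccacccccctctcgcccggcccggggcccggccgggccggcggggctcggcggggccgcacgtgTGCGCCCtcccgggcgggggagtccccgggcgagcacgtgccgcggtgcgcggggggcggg
UHRF1: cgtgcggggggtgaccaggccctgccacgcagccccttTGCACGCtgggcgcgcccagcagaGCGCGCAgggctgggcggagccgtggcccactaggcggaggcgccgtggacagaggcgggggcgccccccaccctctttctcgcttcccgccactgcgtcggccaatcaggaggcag
UHRF1, next to the start: caaatgccgagttttcGCGGGAAAaaaatc

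Total counts ranged from 51934729 to 61916007 per library. The markers of the line were high, with VIM, CD44, AXL, MSN, CAV1 and FOSL1 at 20824 or more counts in every library, and the oestrogen receptor gene ESR1 had 2 to 19 normalized reads. The epithelial keratin gene KRT18, listed as low in the line, went against that at 21666 to 25529 normalized reads. Of the 6 genes listed as low or silent, 3 averaged 100 or more normalized reads, KRT18 among them. Markers of immune, endothelial and stromal cells reached at most 875 counts, their sum was 15.3 to 37.2 CPM (counts scaled to the library total), and the T cell gene CD3E was at 0 in every library. The control libraries stood apart from each other: of 12924 genes whose normalized count averaged 100 or more, 14.2% differed by more than 2-fold between control 2 and control 3, against 0.317% between the cadmium libraries. Results are therefore given beside the values of both controls, and counts of called genes also without each control.

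None of the 9 genes changed between cadmium and control cells at an adjusted p-value below 0.1 (DESeq2), a threshold that 1.14% of the 19816 genes tested passed. At an unadjusted p below 0.05 the count of members was also 0 in DESeq2, edgeR and limma-voom, where 6.92%, 7.39% and 7.4% of tested genes passed. The estimates were small, with 4 genes higher and 5 lower in cadmium cells and a median log2 fold change of -0.09, against -0.02 over all genes tested. Over the 9 genes the 95% limits ran from 0.349-fold for MBD2 to 2.37-fold for TET1. A 2-fold lower level of MBD2 and a 2-fold higher level of TET1 thus lay inside the limits, while for the other 7 genes a 2-fold change lay outside them in both directions. A permutation test of 2 libraries against 2 cannot give a p below 0.333, so the tests reported are those of the fit across all genes. As the RNA came from whole cultures, fewer cells of a kind and less RNA per cell cannot be told apart.

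**Figure D1:**
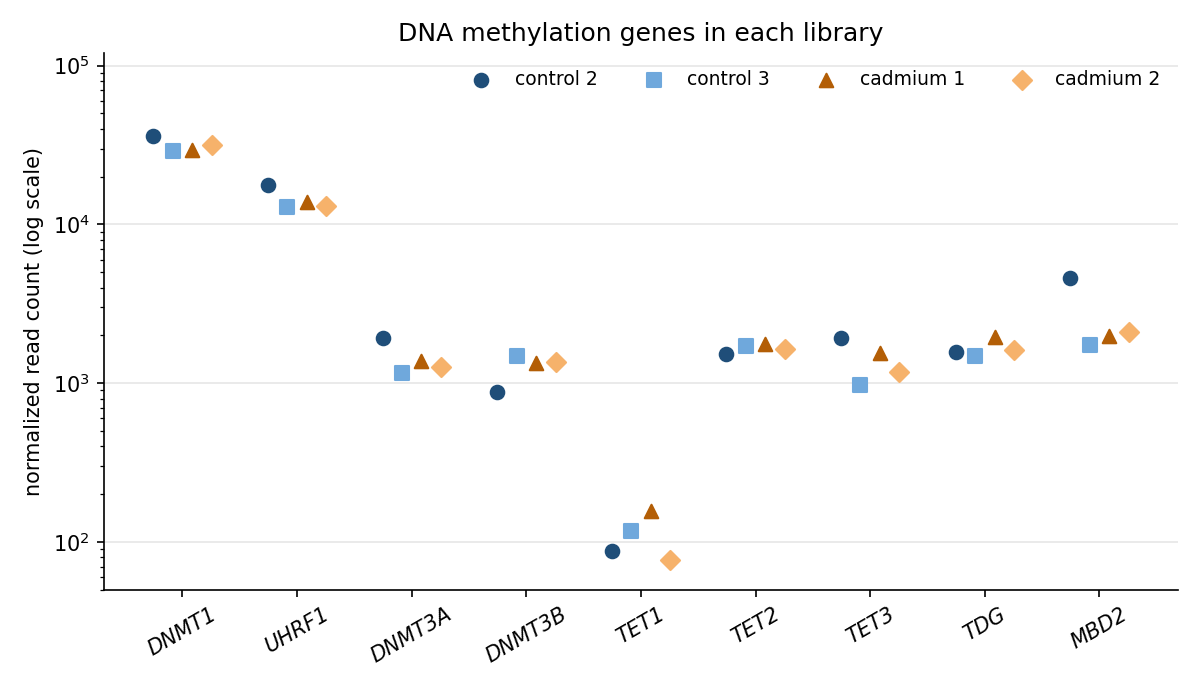
Normalized read counts (DESeq2 size factors, log scale) of the 9 genes in each of the 4 libraries. DNMT1 and UHRF1 lie above the other 7 genes and TET1 lowest, and for MBD2 the point of control 2, at 4568, stands above the other 3 libraries, at 1749 to 2094.

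The maintenance genes DNMT1 and UHRF1 were the most abundant of the set. DNMT1, the methyltransferase that copies methylation onto the new strand, lies on chromosome 19 (10133342 to 10231286, minus strand, hg38, ENSG00000130816, 43 merged exons). It had 36213 and 28848 normalized reads in control 2 and control 3, and 29235 and 31390 in cadmium 1 and cadmium 2. Both cadmium libraries lay between the controls, and control 2 was the highest. The group means were 32531 ± 5208 in control and 30312 ± 1523 in cadmium cells (SD, n = 2 each). On the log2 scale they differed by -0.10, cadmium over control (SE 0.26, interval -0.62 to 0.42, DESeq2 adjusted p = 1.00). Its exons share 83 bases with S1PR2 on the same strand, 0.54% of their length, where reads of either gene are dropped.

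UHRF1, which recognises the half-methylated CpG, lies on the same chromosome (4903080 to 4962154, plus strand, ENSG00000276043, 19 merged exons). Its normalized counts were 17755 and 12787 in the controls and 13868 and 13001 in the cadmium libraries. Again control 2 was the highest and both cadmium libraries lay between the controls, close to control 3. The means of 15271 ± 3513 and 13434 ± 613 (SD, n = 2 each) gave a log2 fold change of -0.18 (SE 0.29, interval -0.75 to 0.38, DESeq2 adjusted p = 1.00).

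The de novo methyltransferases differed between the controls in opposite directions. DNMT3A (chromosome 2, 25227855 to 25342590, minus strand, ENSG00000119772, 28 merged exons) had 1913 and 1166 normalized reads in control 2 and control 3, and 1378 and 1273 in cadmium 1 and cadmium 2. DNMT3B (chromosome 20, 32762385 to 32809356, plus strand, ENSG00000088305, 24 merged exons) had 886 and 1484 in the controls, and 1330 and 1360 in the cadmium libraries. DNMT3A was thus highest and DNMT3B lowest in control 2, and for both genes the cadmium libraries lay between the controls. For DNMT3A the means of 1540 ± 528 and 1326 ± 74.8 (SD, n = 2 each) gave a log2 fold change of -0.22 (SE 0.34, interval -0.89 to 0.45, DESeq2 adjusted p = 1.00). For DNMT3B they were 1185 ± 423 and 1345 ± 21.1, a log2 fold change of 0.18 (SE 0.35, interval -0.50 to 0.86, DESeq2 adjusted p = 1.00). The spread between controls was larger than the difference between groups for both.

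Among the erasers, TET1 had the fewest reads of the set. TET1 (chromosome 10, 68560337 to 68694487, plus strand, ENSG00000138336, 12 merged exons) had 88.0 and 117 normalized reads in the controls, and 156 and 77.0 in cadmium 1 and cadmium 2. The cadmium libraries fell on either side of the controls and differed 2.02-fold from each other. Its log2 fold change was 0.19 (SE 0.54, interval -0.87 to 1.25, DESeq2 adjusted p = 1.00), the widest interval of the 9 genes. The raw counts behind it were 78 to 157 per library.

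TET2 lies on chromosome 4 (105145875 to 105279816, plus strand, ENSG00000168769, 13 merged exons). Its normalized counts were 1526 and 1719 in the controls and 1756 and 1649 in the cadmium libraries. One cadmium library lay between the controls and the other above both, with a log2 fold change of 0.07 (SE 0.26, interval -0.44 to 0.58, DESeq2 adjusted p = 1.00). TET3 (chromosome 2, 73984910 to 74108176, plus strand, ENSG00000187605, 14 merged exons) had 1935 and 971 normalized reads in control 2 and control 3, a 1.99-fold gap, and 1543 and 1184 in cadmium 1 and cadmium 2. Both cadmium libraries lay between the controls. The log2 fold change of TET3 was -0.09 (SE 0.40, interval -0.88 to 0.70, DESeq2 adjusted p = 1.00).

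TDG was the one gene of the set with both cadmium libraries above both controls. It lies on chromosome 12 (103965822 to 103988874, plus strand, ENSG00000139372, 11 merged exons) and had 1577 and 1482 normalized reads in the controls, and 1964 and 1609 in cadmium 1 and cadmium 2. Cadmium 2 was only just above control 2. The means of 1530 ± 67.3 and 1786 ± 251 (SD, n = 2 each) gave a log2 fold change of 0.22 (SE 0.27, interval -0.31 to 0.76, DESeq2 adjusted p = 1.00). Of the 9 genes, 1 thus had its groups apart without overlap, whereas 40.3% of all genes tested did. The pseudogene TDGP1 had 66 to 86 reads, at most 5.21% of the count of TDG, and reads that match both places equally were dropped.

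MBD2, the reader that binds methylated CpG as part of a NuRD complex, had the largest difference between groups and the lowest p by DESeq2 and edgeR. It lies on chromosome 18 (54151606 to 54224669, minus strand, ENSG00000134046, 10 merged exons). Control 2 had 4568 normalized reads, control 3 had 1749, and cadmium 1 and cadmium 2 had 1986 and 2094. Control 2 stood 2.61-fold above control 3, while the cadmium libraries lay between them and close to control 3. The means were 3159 ± 1994 in control and 2040 ± 76.1 in cadmium cells (SD, n = 2 each). The log2 fold change was -0.63 (SE 0.45, interval -1.52 to 0.26) with an unadjusted p of 0.163 and an adjusted p of 0.943 by DESeq2, and an unadjusted p of 0.232 by edgeR. By limma-voom its unadjusted p was 0.359, and TDG had the lowest of the set at 0.299. Of the 12924 genes with a mean of at least 100, 6.93% were more than 2-fold higher in control 2 than in control 3.

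**Figure D2:**
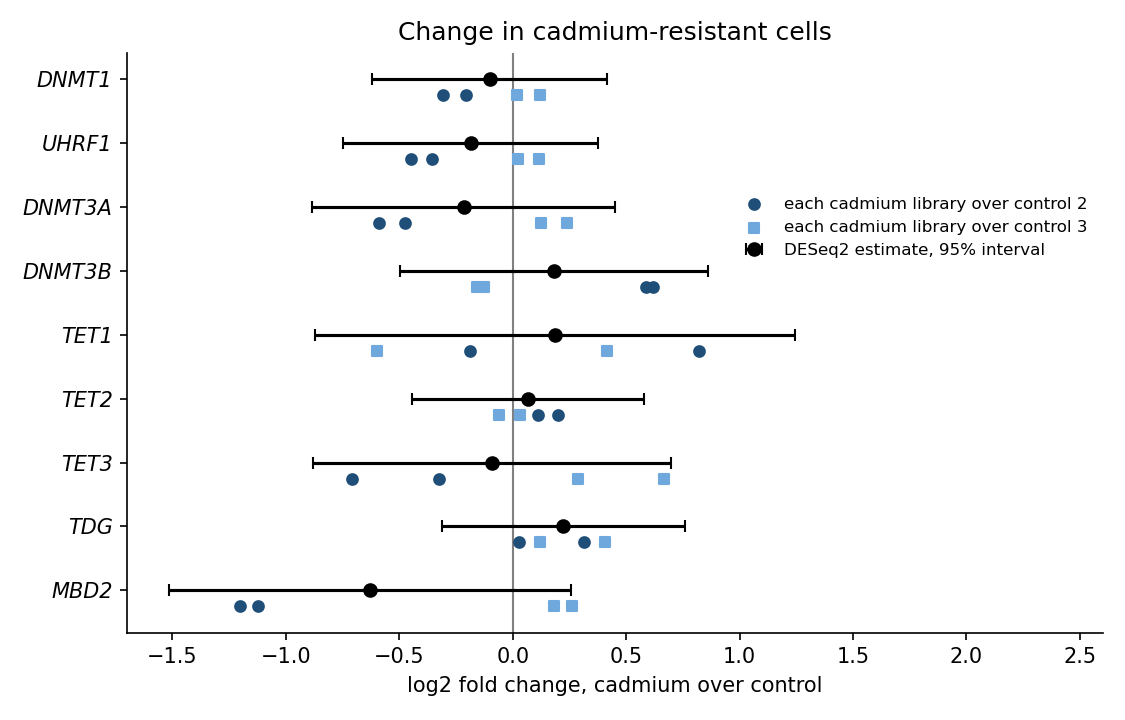
Log2 fold change of each gene in cadmium over control cells. Black points and bars are the DESeq2 estimate and its 95% interval, dark circles are each cadmium library over control 2 and light squares each over control 3, and for MBD2 these fall at -1.20 and -1.12 over control 2 but at 0.18 and 0.26 over control 3.

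The direction of most of these small differences turned on the control used. In 6 of the 9 genes both cadmium libraries lay within the range of the controls, which was so for 30.9% of all genes tested. In 7 genes the gap between the controls was larger than that between the cadmium libraries, and in 8 the cadmium mean was closer to control 3 than to control 2. These last counts were not taken over all genes, so they are not read as traits of the 9. Among genes averaging 100 or more normalized reads, 14.2% differed past 2-fold between the controls, against 0.317% between the cadmium libraries. Without control 2, DNMT1, DNMT3A, UHRF1, TET3 and MBD2 had log2 fold changes of 0.069, 0.18, 0.070, 0.49 and 0.22, opposite in sign to those above, and 0 of the 9 genes were called where 14.8% of the genes tested were. DNMT3B, TET1 and TET2 also turned, to -0.14, -0.00416 and -0.016, and only TDG kept its sign. A turn of sign follows where the cadmium mean lies between the controls, and a kept sign where it lies above both, as for TDG. These signs thus restate the positions of the libraries and are no further result. The share of all genes tested whose sign turned was not taken. Without control 3, 6 of the 9 genes were called at an adjusted p below 0.1 by DESeq2, where 31.2% of the genes tested were. Those were MBD2 at -1.17 (adjusted p = 1.39e-13), UHRF1 at -0.41 (0.00373), DNMT3B at 0.59 (0.00985), DNMT3A at -0.54 (0.0114), TET3 at -0.52 (0.0399) and DNMT1 at -0.27 (0.0763). Without cadmium 1 or cadmium 2, 0 members were called, against 0.114% and 0.107% of the genes tested. In each of these fits the lone library is assumed to vary as the others do.

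The gaps between the controls were set beside those of neighbouring genes on the chromosome, taken as the 20 nearest genes on each side that averaged 100 or more normalized reads. For DNMT3A the log2 ratio of control 3 over control 2 was -0.71, and the median of its 40 neighbours was -0.69, with 37 of them lower in control 3. For MBD2 the ratio was -1.38 and the median of neighbours -0.89, with 36 of 40 lower in control 3 and 7 past MBD2 in the same direction. TET3 had -0.99 against a median of -0.61, also with 36 of 40 lower. These 3 genes thus lay in stretches where most expressed genes were lower in control 3, and the medians over the whole of chromosomes 2 and 18 were -0.44 and -0.68.

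The other genes lay in more even surroundings. The neighbours of DNMT3B had a median of -0.17 where DNMT3B itself was at 0.74, and only 5 of 40 were past it. DNMT1 and UHRF1 were at -0.33 and -0.47 beside medians of -0.07 and -0.10, and TET1 was at 0.41 beside -0.15. TET2 (0.17 beside 0.17) and TDG (-0.09 beside -0.02) were close to their neighbours. Against control 3, the median of each cadmium library over the neighbours of every one of the 9 genes lay between -0.13 and 0.10. Against control 2 these medians were -0.75 and -0.76 near DNMT3A, -0.67 and -0.58 near TET3, and -0.72 and -0.71 near MBD2. Near the remaining genes they lay between -0.22 and 0.04. Near TET2 they were 0.04 and -0.03 against control 2, and -0.13 for both against control 3. The part that these regional differences have in the results was not tested.

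**Figure D3:**
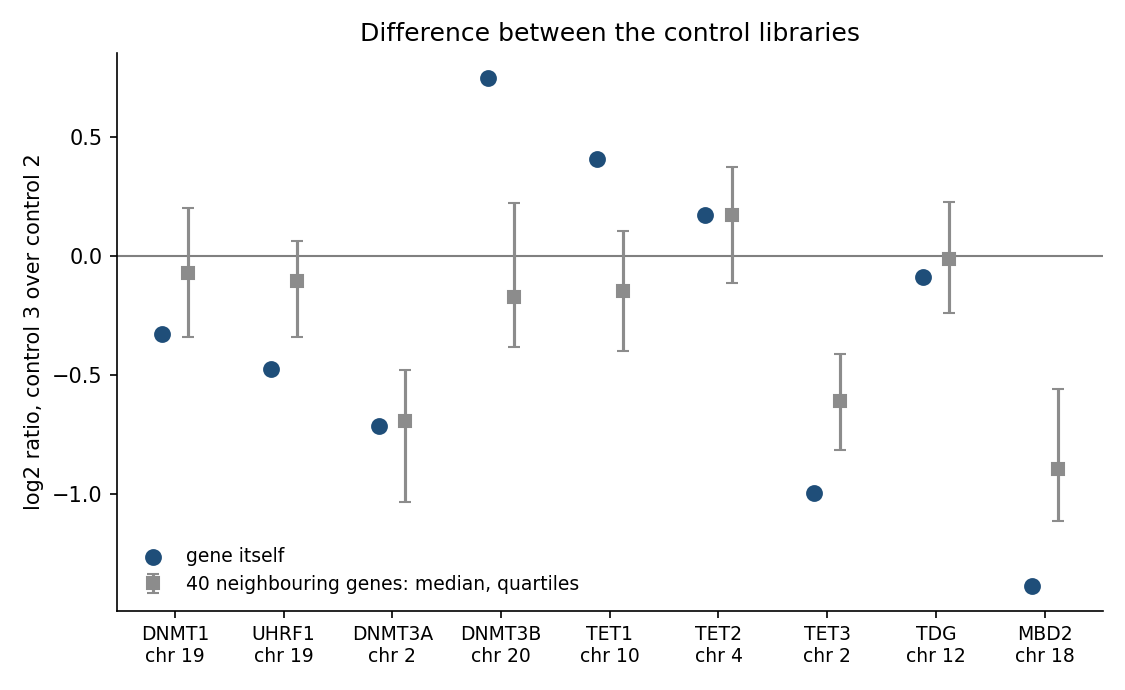
Log2 ratio of control 3 over control 2 for each gene (circles) and for its 40 neighbouring genes on the chromosome (squares, median; bars, quartiles). The neighbours of DNMT3A, TET3 and MBD2 lie well below 0, at medians of -0.69, -0.61 and -0.89, while those of the other 6 genes have medians from -0.17 to 0.17.

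Genes most like MBD2 over the 4 libraries were sought by the largest difference between log2 values, each centred over the libraries, among 12923 other genes. The closest were the pseudogene CHCHD3P3 on chromosome 1, NANOS1 on chromosome 10 and CHRNB1 on chromosome 17, which differed from MBD2 by at most 0.0498, 0.0501 and 0.0536 in any library. NANOS1, an RNA-binding translational repressor, had 1111 and 442 normalized reads in the controls and 508 and 534 in the cadmium libraries. Of the 12923 genes, 146 stayed within 0.2 of MBD2 in all 4 libraries. They were picked for this pattern, and the same count was not taken for other genes.

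Levels were compared between genes per length, as RPKM, the read count divided by the exon length and by the library's total of assigned reads. Averaged over the 4 libraries, UHRF1 was at 49.6 RPKM and DNMT1 at 36.3 RPKM, above 95.8% and 93.8% of the genes tested. MBD2 followed at 8.06, TDG at 6.06 and DNMT3B at 4.89. TET3, DNMT3A and TET2 were at 1.93, 1.84 and 1.80, and TET1 at 0.204, above 16.7% of the genes tested. UHRF1 (45.0 to 58.9) and DNMT1 (34.0 to 40.2) did not overlap in their ranges over the libraries. That order rests on merged exon lengths of 5145 bases for UHRF1 and 15379 for DNMT1. By normalized reads DNMT1 was the higher in every library. The ranges of MBD2 (5.57 to 13.7) and TDG (5.49 to 7.33) overlapped. So did those of TDG and DNMT3B (3.27 to 5.81), so the order of these genes is not set by these libraries. The ranges of TET3 (1.36 to 2.55), DNMT3A (1.53 to 2.37) and TET2 (1.58 to 1.94) lay over one another.

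Ratios between genes within a library do not depend on its scaling. The ratio of DNMT3B to DNMT3A per length was 1.38 in control 2 and 3.79 in control 3, and 2.87 and 3.18 in cadmium 1 and cadmium 2. The ratio was above 1 in every library and lowest in control 2. It rests on the merged exon lengths of 13781 bases for DNMT3A and 4630 for DNMT3B, and by normalized reads DNMT3A was the higher in control 2 and cadmium 1. UHRF1 over DNMT1 was steadier, at 1.47 and 1.32 in the controls and 1.42 and 1.24 in the cadmium libraries. It too rests on the merged exon lengths, as DNMT1 had more normalized reads than UHRF1 in every library. DNMT1 over the sum of DNMT3A and DNMT3B was 7.13 and 4.63 in the controls, and 4.91 and 5.29 in the cadmium libraries.

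Summed per length, the methyltransferases exceeded the TET genes in all libraries, with DNMT1 the main part of their sum. DNMT3A alone, at a mean of 1.84 RPKM, was near TET3 at 1.93 and TET2 at 1.80. These levels rest on merged exon lengths. The summed level of the 3 methyltransferases over that of the 3 TET genes was 10.7 and 11.9 in the controls and 9.45 and 12.2 in the cadmium libraries, so the groups overlapped. TET3 over TET2 was 1.61 and 0.719 in control 2 and control 3, and 1.12 and 0.914 in cadmium 1 and cadmium 2. TET3 made up 59.5% and 39.2% of the TET level in the controls, against 49.2% and 45.8% in the cadmium libraries. TET1 stayed a minor part, at 3.64% to 6.72%. In none of these ratios did both cadmium libraries lie outside the range of the controls on the same side.

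**Figure D4:**
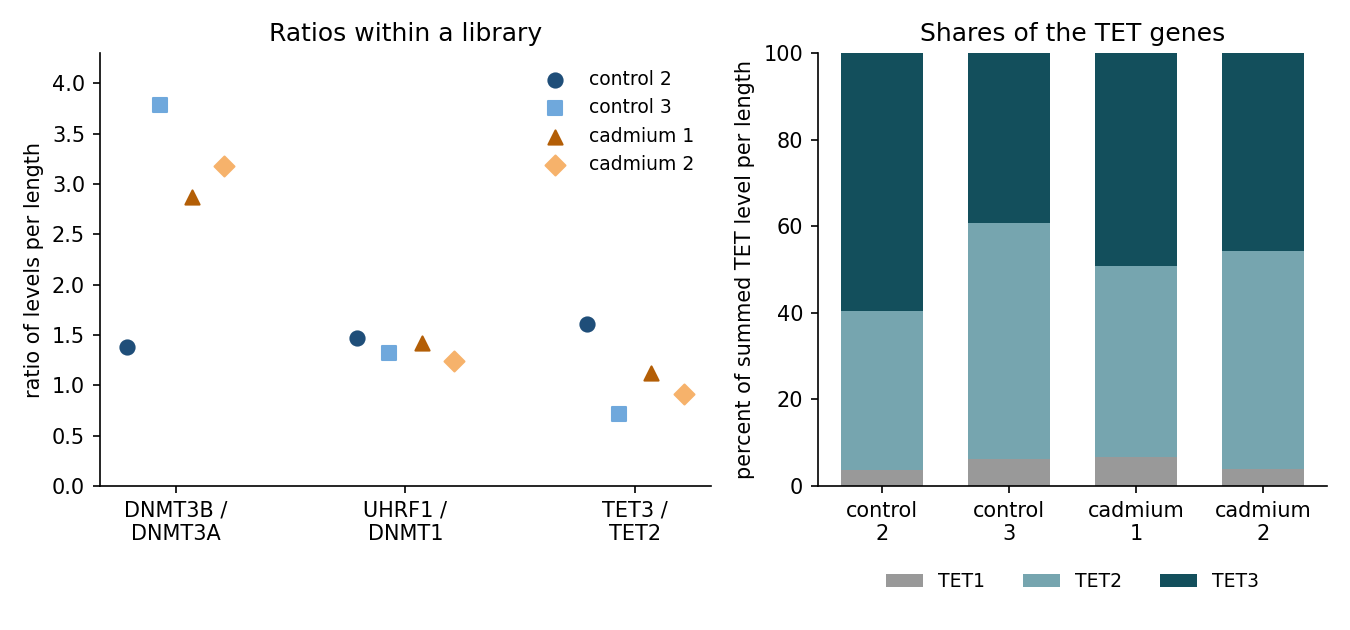
Left, ratios of levels per length between pairs of genes within each library. Right, the percent of the summed TET level that came from each TET gene in each library, with TET3 at 59.5% in control 2 and 39.2% in control 3.

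Genes that work with the 9 were described as lists by their counts and medians, with no test of a list. Over all 19816 genes tested, 1.14% were called and 10418 had a log2 fold change below 0, and the shares called without control 2 and without control 3 were 14.8% and 31.2%. In the fits without 1 control, calls in every list are to be read against those shares. Of the other methyl-CpG readers, 10 were tested and 0 were called, with a median log2 fold change of -0.07. The list had 3 called genes and a median of 0.056 without control 2, and 5 and -0.045 without control 3. ZBTB38, a zinc finger protein that binds methylated CpG and the highest of the list by mean normalized reads, was at 19689 and 4526 normalized reads in the controls and 8779 and 7830 in the cadmium libraries. As with MBD2, control 2 was the high library, and the log2 fold change of ZBTB38 was -0.54. Per length ZBTB4 exceeded ZBTB38 in every library. ZBTB4, of the same family, had 9946 and 11771 reads in the controls and 7444 and 8687 in the cadmium libraries, with an unadjusted DESeq2 p of 0.104. Both cadmium libraries lay below both controls for ZBTB4.

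Partners of the methyltransferases held 13 tested genes, 0 called, with a median of 0.01. Leaving out control 2 gave 3 calls and a median of 0.0070, and leaving out control 3 gave 3 calls and -0.088. TRIM28, the corepressor that links zinc finger proteins to silencing, had 39449 and 27159 normalized reads in the controls and 34378 and 35507 in the cadmium libraries. USP7, a deubiquitinase that stabilises DNMT1 and UHRF1, had 8525 and 7260 in the controls and 8467 and 8062 in the cadmium libraries. For both genes the cadmium libraries lay within the control range. DNMT3L, the catalytically inactive cofactor of the de novo enzymes, and DPPA3 and ZFP57, all named after their values were seen, had a count of 0 in every library. Were counts independent, this would allow up to 3 counts, or 0.0485 to 0.0578 CPM, and since each mate of a pair was counted the limit is higher than that.

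Subunits of NuRD, the complex that MBD2 brings to DNA, comprised 14 tested genes with 0 called, a median of -0.11 and 13 of 14 below 0. CHD3, a remodelling ATPase of the complex, had 14002 and 18308 normalized reads in the controls and 17009 and 15037 in the cadmium libraries, within the control range. GATAD2A, a bridging subunit, had 17053 and 11424 in the controls and 13613 and 13099 in the cadmium libraries, also within it. Without control 2 the median of the list was 0.083 with 2 genes called, and without control 3 it was -0.26 with 7 called, so the direction of the NuRD list turned with the control used.

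Cofactors and metabolic suppliers of the TET enzymes held 16 tested genes with 0 called and a median of -0.10. The calls numbered 4 without control 2 (median -0.046) and 9 without control 3 (median -0.23). OGT, the glycosyltransferase that binds TET proteins, had 8913 and 20181 normalized reads in the controls and 21351 and 18280 in the cadmium libraries. Control 2 was the low library for OGT, and the other 3 were alike. IDH3B, a subunit of a mitochondrial isocitrate dehydrogenase that yields the ketoglutarate used by TET, had 7788 and 4908 in the controls and 5705 and 6285 in the cadmium libraries.

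In this list 3 of 16 genes had an unadjusted DESeq2 p below 0.05, against 6.92% of all genes tested, and they are named after their values were seen. D2HGDH, which breaks down hydroxyglutarate, an inhibitor of TET enzymes, had 482 and 646 normalized reads in the controls and 295 and 312 in the cadmium libraries. IDH2, which makes ketoglutarate in mitochondria, had 3010 and 1557 in the controls and 1089 and 1291 in the cadmium libraries. CXXC5, a CpG-binding protein, had 1454 and 2194 in the controls and 810 and 1202 in the cadmium libraries. All 3 had both cadmium libraries below both controls, and their adjusted p-values of 0.294, 0.425 and 0.458 missed the threshold in DESeq2. An unadjusted DESeq2 p below 0.05 was found for 0 of 10 methyl-CpG readers, 1 of 13 methyltransferase partners and 1 of 14 NuRD genes. It was found for 2 of 16 genes of the repair list, 0 of 15 of the methionine cycle and 2 of 18 of DNA replication. Among germline and imprinted genes it was found for 0 of 8 and 3 of 12.

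The list of other glycosylases, later genes of base excision repair and GADD45 genes was the one with a called gene. Of 16 genes tested, 1 was called higher, against 0.601% of all genes tested, with a list median of -0.14 and 11 of 16 below 0. GADD45G, a stress-induced protein that has been linked to demethylation by repair, had 19.9 and 6.38 normalized reads in the controls, and 91.6 and 152 in the cadmium libraries. Both cadmium libraries stood well above both controls at these low counts. The log2 fold change of GADD45G was 3.20 (SE 0.71, DESeq2 adjusted p = 0.00226), and by edgeR the unadjusted p was 0.00537, which did not pass after adjustment. Without cadmium 1 or without cadmium 2, 0 genes of the list were called by DESeq2. Without control 2 there were 3 calls and a list median of -0.011, and without control 3 there were 6 and -0.25. GADD45A, from the same family and named after its values were seen, had 3703 and 2463 in the controls and 2970 and 3194 in the cadmium libraries.

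**Figure D5:**
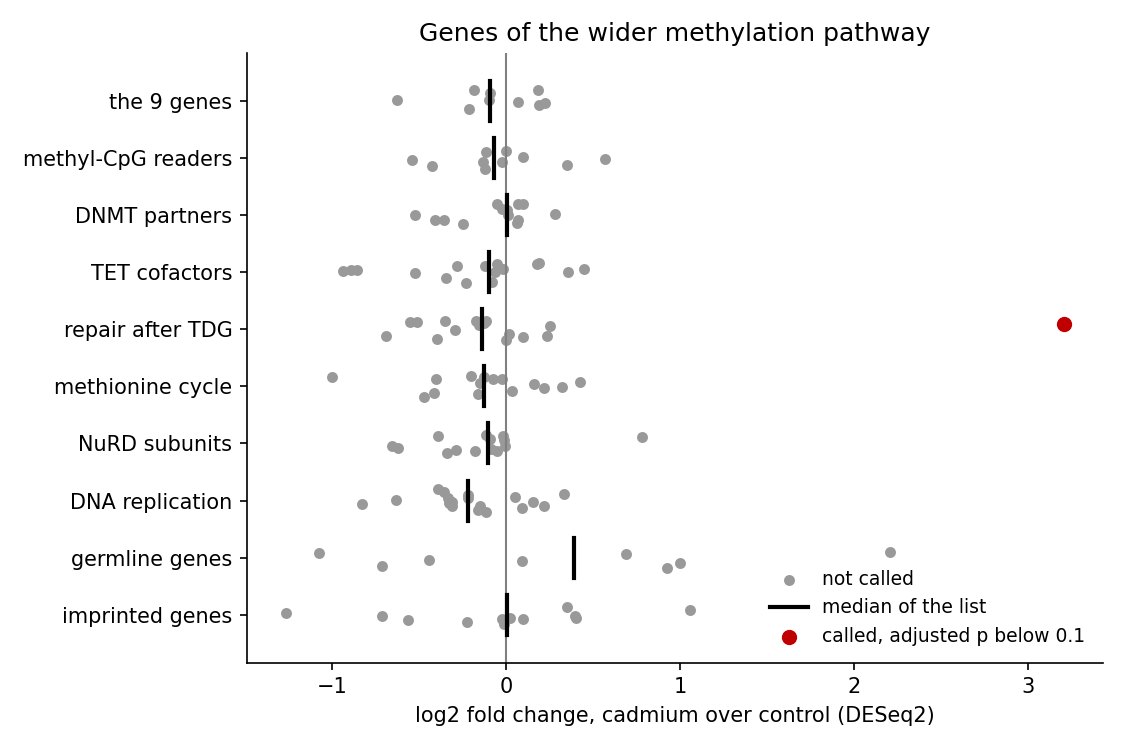
Log2 fold changes (DESeq2, cadmium over control) of the tested genes in each list, with the list median as a black bar. GADD45G at 3.20 is the called gene, and the other list members are not called. The row named repair after TDG also holds other glycosylases and the GADD45 genes.

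Supply of the methyl donor was described by 15 tested genes of the methionine and folate cycles, 0 called, with a median of -0.13. With control 2 left out 1 was called (median -0.021), and with control 3 left out 6 were (median -0.080). SHMT2, which feeds mitochondrial one-carbon units, had 13620 and 20147 normalized reads in the controls and 24078 and 21264 in the cadmium libraries. AHCY, which removes the methyltransferase inhibitor S-adenosylhomocysteine, had 20185 and 11292 in the controls and 11649 and 11951 in the cadmium libraries. SHMT2 was lowest and AHCY highest in control 2. MTAP, which salvages methylthioadenosine, and BHMT had a count of 0 in every library and are named after their values were seen.

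DNMT1 and UHRF1 are genes of dividing cells, so genes of DNA replication were given beside them. Of 18 tested genes 0 were called, with a median of -0.22 and 13 of 18 below 0. Both cadmium libraries lay below both controls in 8 of the 18 and above them in 4. Over the 19816 genes tested this was so for 3951 and 4025. The median was -0.066 with 3 genes called without control 2, and -0.40 with 11 called without control 3. MKI67, a proliferation marker, had 84526 and 62253 normalized reads in the controls and 54283 and 63931 in the cadmium libraries. TOP2A, the replicative topoisomerase, had 32896 and 41810 in the controls and 31398 and 35930 in the cadmium libraries. Between the controls, 16 of the 18 genes were lower in control 3, with a median log2 ratio of -0.29. Of all 12924 genes averaging 100 or more normalized reads, 7041 were lower in control 3, with a median of -0.06. DNMT1 was at -0.33 and UHRF1 at -0.47, while TOP2A went the other way at 0.35. The part of the replication genes in the values of DNMT1 and UHRF1 was not tested.

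Germline genes, whose silencing in somatic cells is known to depend on DNA methylation, had few reads. Of 35 germline genes, 16 were at 0 in every library and 25, those included, had at most 10 counts in any library, and 8 were tested and 0 were called. The cancer-testis gene XAGE1B had 166 and 607 normalized reads in the controls and 125 and 241 in the cadmium libraries, and MAEL, a germline piRNA factor, had 183 and 101 in the controls and 141 and 161 in the cadmium libraries. The median over the 8 was 0.39, with 5 higher and 3 lower. It was 0.090 without control 2, where 1 gene was called, and 0.996 without control 3, where 2 were called.

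Of 23 imprinted genes, 12 were tested and 0 were called, with a median of 0.01. GNAS, the gene of the stimulatory G protein alpha subunit, had 69342 and 62946 normalized reads in the controls and 67797 and 63488 in the cadmium libraries, within the control range. PHLDA2, a growth-restraining gene expressed from the maternal allele, had 10653 and 12335 in the controls and 14342 and 15998 in the cadmium libraries, with both above both controls and a log2 fold change of 0.40. Calls among the imprinted genes numbered 3 without control 2 (median 0.023) and 6 without control 3 (median 0.13).

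An unadjusted DESeq2 p below 0.05 was found for 3 of the 12 imprinted genes, against 6.92% of all genes tested. The counts of the other lists are given with the TET cofactors. These imprinted genes are named after their values were seen. MEST had 1821 and 804 normalized reads in the controls and 516 and 576 in the cadmium libraries (unadjusted p = 0.00338, adjusted p = 0.198, DESeq2). SGCE had 4432 and 4228 in the controls and 3021 and 2832 in the cadmium libraries, and CDKN1C, an inhibitor of cyclin-dependent kinases, had 470 and 269 in the controls and 776 and 759 in the cadmium libraries. Both cadmium libraries lay below both controls for MEST and SGCE and above them for CDKN1C, and none of the 3 passed the threshold after adjustment.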

How the data were processed

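Total RNA of 2 control and 2 cadmium-resistant cultures was sequenced as read pairs. The values deposited by the authors are unnormalized read counts by gene. The authors trimmed with bbduk, aligned to hg38 with hisat2 and counted with featureCounts 2.0.1 on an Ensembl annotation. Default options applied, so strand was ignored, reads of several places or genes were dropped and each mate was counted (70.6% to 71.5% of counts from 1 to 20 were even). Counting error is therefore larger than the counts give.

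Columns were assigned by name. Cadmium columns took the replicate of their label, and control columns, numbered 2 and 3 where labels have 1 and 2, took the group alone. Symbols matched 61369 genes. The study's method, DESeq2 (1.42.0 here, R 4.3.3, design: group, two-sided Wald test), was fitted to all genes, with size factors of 1.06, 0.940, 1.00 and 1.01 for control 2, control 3, cadmium 1 and cadmium 2, Benjamini-Hochberg adjustment and a filter at a mean normalized count of 7.69. Log2 ratios of libraries used a pseudocount of 1. Alternatives were edgeR 4.0.16 (quasi-likelihood), limma 3.58.1 (voom), other scalings and filters, halved counts, removal of a length trend and leaving out each library. Scripts were tested on simulated data. Promoter sequence was read from hg38.

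The members and lists were chosen with earlier results of these data known. Named were all 9 members, in each list the called genes (up to 4, by adjusted p) or else the 2 with the highest mean, and the 3 genes most like the member with the lowest p. Other genes are named with a statement that their values had been seen. CUT&RUN and ATAC-seq data were not analysed here.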

Additional observations from a re-analysis of the deposited data

How the results depend on the processing

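Over all genes, DESeq2 called 119 higher and 106 lower; edgeR and limma-voom called 0 and 0 at an adjusted p below 0.1, with 1422 and 1423 genes at an unadjusted p below 0.05. TMM factors, upper-quartile factors, no filtering, a minimum of 10 counts, halved counts, a removed length trend and an adjusted p below 0.05 kept both counts within 1.5 times; with upper-quartile factors they were 152 and 88. With 1 library left out, the counts ranged from 9 to 2678 higher and from 5 to 3511 lower, the highest without control 3 and the lowest without a cadmium library, where the lone library is assumed to vary like the others. The number of members called ranged from 0 to 6 when a library was left out, with 6 without control 3 and 0 without any other library. With a library left out, the log2 fold change ranged from -0.27 to 0.069 for DNMT1, -0.54 to 0.18 for DNMT3A, -0.14 to 0.59 for DNMT3B, -0.41 to 0.070 for UHRF1, -0.42 to 0.61 for TET1, -0.016 to 0.15 for TET2, -0.52 to 0.49 for TET3 and -1.17 to 0.22 for MBD2. The sign turned without control 2 in all of these 8 genes (TET1 to -0.00416), without cadmium 1 in TET1 and without cadmium 2 in TET3 (0.08), and the cause was not tested. Without control 2 the turn follows from cadmium means that lay between the controls, so it is no further result. TDG kept its sign in every alternative run. Of 108 alternative values of single members, 92 kept direction and side of the threshold. A window of 10 in place of 20 genes on each side kept the direction of all 9 neighbourhood medians. No paired analysis was possible because only 1 number, 2, is shared by columns of both groups (controls 2 and 3, cadmium 1 and 2). Depth limits TET1 most, with 78 to 157 counts.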
